A study of Mus musculus with 4 samples.

Results

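Chemokines and a chemokine receptor were followed in brain sections of mice that lacked Pdcd10 in brain endothelium. The 10 genes Ccl2, Ccl3, Ccl4, Ccl5, Ccl7, Ccl12, Cxcl10, Cxcl12, Cxcl16 and Ccr2 were chosen by symbol from the 32285 genes measured, and each had 1 row in every library. The data were 4 libraries of 10x Visium, an assay that captures RNA of a tissue section on a grid of barcoded spots, each wide enough to hold several cells. The 2 control libraries came from littermates of genotype Pdcd10fl/fl, and the 2 knockout libraries from Slco1c1-iCreERT2;Pdcd10fl/fl mice, in which a tamoxifen-regulated Cre driven by the brain endothelial gene Slco1c1 inactivates the floxed gene. Mice were given 50 µg of 4-hydroxytamoxifen into the stomach at postnatal day 1, brains were analysed at day 65, and sections were 10 µm thick and cut from fresh-frozen tissue. The labels conflict on oxygen. All titles say normoxia, a treatment field says hypoxia for the knockouts and normoxia for the controls, and a protocol common to all samples gives 12% oxygen for 2 days, so genotype and a possible difference in oxygen cannot be told apart. Loss of Pdcd10, also called Ccm3, from endothelium causes cerebral cavernous malformations, which are clusters of dilated, leaky vessels.

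Chemokines are small secreted proteins that bind G protein-coupled receptors on leukocytes and steer their migration. Ccl2, Ccl7 and Ccl12 bind Ccr2, the receptor that brings inflammatory monocytes out of blood. Ccl3, Ccl4 and Ccl5 attract myeloid cells and T cells. Cxcl10 is induced by interferon and binds Cxcr3. In the brain Cxcl12 is made by vessels, meninges and some neurons and binds Cxcr4 and Ackr3, and Cxcl16 is a membrane-bound ligand of Cxcr6.

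Each library held between 50148764 and 74467027 UMIs, the molecular tags that count single captured transcripts, and between 2931 and 4599 of its 4992 spots had at least 1000 UMIs and were kept. The median depth of kept spots was 15326 and 16226.5 UMIs in the controls, 8158 in knockout 1 and 13164.5 in knockout 2. Over the whole section Pdcd10 itself was at 90.9 and 82.2 CPM, the UMIs scaled to the library total, in the controls and at 80.3 and 83.0 CPM in the knockouts (adjusted p = 0.410), a comparison that cannot check a deletion confined to endothelium. Of the myeloid marker lists, those of phagocytes, neutrophils and monocytes had higher sums in the knockouts and that of homeostatic microglia lower ones. The phagocyte list went from 420 and 478 CPM in the controls to 1148 and 1137 CPM, with 17 of 18 genes called higher. The neutrophil list went from 10.6 and 8.54 CPM to 41.8 and 42.1 CPM, with 7 of 9 tested genes called higher and 1 lower. Most of the neutrophil sum was S100a8 and S100a9. The gene called lower was Camp (17 and 29 UMIs in the controls, 1 and 8 in the knockouts), and Ngp (30 and 23 against 1 and 18 UMIs) did not pass. The monocyte list went from 49.7 and 50.2 CPM to 138 and 132 CPM, with 6 of 7 tested genes called higher. Most of that sum was Fn1 (38.9 and 38.0 CPM in the controls, 107 and 99.0 CPM in the knockouts), Chil3 went from 12 and 10 UMIs to 228 and 428, and the defining gene Ly6c2 had 5 and 19 UMIs in the control libraries and 6 and 21 in the knockouts. The homeostatic microglia list went from 227 and 268 CPM to 198 and 193 CPM, with 6 of 8 genes called lower. The endothelial list went from 241 and 253 CPM to 508 and 468 CPM, with 11 of 14 genes called higher. The interferon-response list went from 81.4 and 85.1 CPM to 236 and 249 CPM, with 18 of 18 genes called higher. Beside these lists, 20.1% of all genes tested were called higher and 18.3% lower. The part of these lists in the results on the 10 genes was not tested. Of the lymphocyte list 3 of 7 tested genes were called lower and none higher, and its sums were 27.9 and 25.1 CPM in control and 11.7 and 12.9 CPM in knockout libraries. Most of that was the T cell receptor gene Trbc2 (23.1, 20.4, 8.12 and 8.98 CPM), Trac had 117 to 180 UMIs per library, and the T cell genes Cd3e and Cd8a had at most 5 and at most 2. The sections also differed in what they covered, since pituitary genes summed to 221 and 89.1 CPM in the controls and to 6.75 and 6.72 CPM in the knockouts. In such sections more cells of a type and more RNA per cell cannot be told apart.

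Of the 10 genes, 7 were higher in the knockouts, Cxcl12 was lower, and Ccl7 and Ccr2 did not pass the test. For comparison, 20.1% of the 17546 genes tested were called higher and 18.3% lower, at an adjusted p under 0.05 in edgeR's quasi-likelihood test over whole-section sums with 2 libraries per group. The median log2 fold change was 2.14 over the 10 genes and 0.00 over all genes tested. The p-values measure the spread between these libraries, since the labels do not say whether same-genotype sections came from separate animals. The knockouts did not behave alike for all genes: the 95% Poisson intervals of the levels in both knockouts overlapped for Ccl3, Ccl12, Cxcl12, Cxcl16 and Ccr2, whereas Cxcl10, Ccl2, Ccl4, Ccl5 and Ccl7 were higher in knockout 2 beyond counting error.

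**Figure D1:**
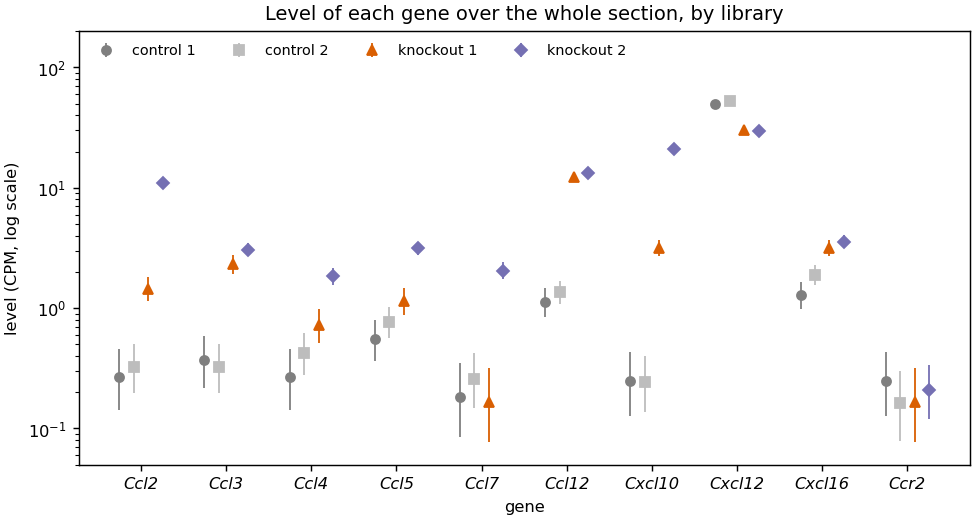
Level of the 10 genes in CPM (log scale) over all kept spots, 1 point per library, with exact 95% Poisson intervals of the UMI counts. Both knockouts lie above both controls for Ccl2, Ccl3, Ccl4, Ccl5, Ccl12, Cxcl10 and Cxcl16, both lie below for Cxcl12, and for Ccl7 knockout 2 alone is high.

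Of the 10 genes Cxcl10 had the highest fold. It had 12 and 15 UMIs in the controls, 171 in knockout 1 and 1617 in knockout 2, which is 0.246, 0.244, 3.18 and 21.0 CPM. The groups did not overlap, and the knockouts differed far more from each other than the controls did, with means of 12.1 ± 12.6 CPM (SD, n = 2) against 0.245 ± 0.00141 CPM (SD, n = 2). The fitted log2 fold change was 5.64 (SE 1.05, adjusted p = 0.00589), or 49.8-fold. Its size depended on the library: it was 12.8-fold without knockout 2 and 85.0-fold without knockout 1. The gene lies on chromosome 5 at 92346638 to 92348889 (GRCm38.p6) and overlaps Art3, and no source used here says whether reads were counted by strand. Its promoter is shown because its UMIs gathered in spots rich in interferon-response RNA, and beside it those of Ccl12, which rose over many spots, and Cxcl12, which fell. Promoters are given 5′ to 3′ from RefSeq on GRCm38.p6, from 250 bases before to 50 bases after the annotated start, at chr5:92348840-92349139 (minus strand), chr11:82101595-82101894 (plus strand) and chr6:117168285-117168584 (plus strand). Capitals mark the interferon-stimulated response element (GAAA, then 2 bases of any kind, then GAAA) and the kappa-B motif.
Cxcl10: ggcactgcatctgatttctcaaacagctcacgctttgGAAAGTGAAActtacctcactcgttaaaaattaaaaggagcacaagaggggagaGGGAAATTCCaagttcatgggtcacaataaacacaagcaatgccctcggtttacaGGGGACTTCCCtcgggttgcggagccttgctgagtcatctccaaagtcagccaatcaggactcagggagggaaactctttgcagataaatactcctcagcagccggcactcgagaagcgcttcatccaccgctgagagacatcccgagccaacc
Ccl12: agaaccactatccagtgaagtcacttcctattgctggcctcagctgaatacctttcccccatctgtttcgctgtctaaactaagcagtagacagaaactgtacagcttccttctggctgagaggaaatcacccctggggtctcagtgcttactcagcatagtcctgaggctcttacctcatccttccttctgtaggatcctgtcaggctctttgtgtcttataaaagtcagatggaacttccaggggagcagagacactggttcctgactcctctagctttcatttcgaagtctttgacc
Cxcl12: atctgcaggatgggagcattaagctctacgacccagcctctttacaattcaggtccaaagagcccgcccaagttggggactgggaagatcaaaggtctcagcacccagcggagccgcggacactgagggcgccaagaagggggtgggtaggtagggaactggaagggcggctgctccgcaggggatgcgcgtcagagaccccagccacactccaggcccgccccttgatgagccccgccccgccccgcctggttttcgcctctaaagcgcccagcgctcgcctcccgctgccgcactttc
On both strands the Cxcl10 window held 1 interferon-stimulated response element at positions -213 to -204 from the start, found in 3.44% of the 32851 promoters of the same length. It also held 3 kappa-B matches, 2 of which overlap, a motif present in 8.46% of promoters, and 1 AP-1 motif TGANTCA, present in 7.81%. None of these motifs, nor the gamma-activated site TTCNNNGAA (8.30% of promoters), was found in the windows of Ccl3, Ccl12, Cxcl12 and Ccr2, and the promoters of the other 5 genes were not analysed here. A match describes letters in the window and does not show that a factor binds.

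Ccl2 and Ccl7 followed the same unevenness between the knockouts. Ccl2, the main ligand that draws Ccr2-bearing monocytes, had 13 and 20 UMIs in the controls, 78 in knockout 1 and 842 in knockout 2 (0.266, 0.325, 1.45 and 10.9 CPM). Both knockouts were above both controls, and the log2 fold change was 4.40 (SE 0.996, adjusted p = 0.0126), or 21.1-fold, falling to 4.82-fold without knockout 2. Ccl7, another Ccr2 ligand, had 9, 16, 9 and 158 UMIs (0.184, 0.260, 0.167 and 2.05 CPM), so knockout 1 lay below both controls and knockout 2 alone was high. It did not pass the test (log2 fold change 2.37, SE 0.976, adjusted p = 0.0939), although it did without knockout 1 (adjusted p = 8.71e-08), and without knockout 2 its log2 fold change was -0.43 (adjusted p = 0.683).

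Ccl12, a Ccr2 ligand of the mouse, rose to near the same level in both knockouts. It had 55 and 84 UMIs in the controls, 656 in knockout 1 and 1017 in knockout 2, or 1.13, 1.37, 12.2 and 13.2 CPM. The groups stood well apart, and the log2 fold change was 3.34 (SE 0.138, adjusted p = 1.01e-05), or 10.1-fold, between 9.29 and 11.3-fold when any 1 library was left out. Ccl2, Ccl7 and Ccl12 lie within 67.8 kb on chromosome 11, from 82035577 to 82103399. Of these neighbours Ccl12 had overlapping counting intervals in the knockouts (11.3 to 13.2 and 12.4 to 14.0 CPM), and Ccl2 and Ccl7 did not.

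The inflammatory chemokines Ccl3 and Ccl4, typical products of activated macrophages and microglia, and Ccl5, typical of T cells and myeloid cells, were also higher. Ccl3 had 18, 20, 125 and 237 UMIs (0.368, 0.325, 2.33 and 3.07 CPM), with both knockouts clear of the controls, and rose 7.83-fold (log2 2.97, SE 0.249, adjusted p = 2.18e-04). Ccl4 had 13, 26, 39 and 142 UMIs (0.266, 0.423, 0.725 and 1.84 CPM). Its knockout levels were both above the controls, but knockout 1 was near them, and the 3.75-fold rise (log2 1.91, SE 0.488, adjusted p = 0.0201) did not pass without knockout 2 (2.05-fold, adjusted p = 0.0845). Ccl5 had 27, 47, 62 and 242 UMIs (0.553, 0.765, 1.15 and 3.14 CPM), and its 3.29-fold rise (log2 1.72, SE 0.470, adjusted p = 0.0255) likewise did not pass without knockout 2 (1.72-fold, adjusted p = 0.10). Ccl3 and Ccl4 overlap in the annotation of chromosome 11, at 83647843 to 83649378 and 83648624 to 83664683, and Ccl5 overlaps Gm32650, so reads of the shared stretches cannot be told apart unless counting used strand.

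Cxcl16 rose and Cxcl12 fell, by smaller folds and to like levels in both knockouts. Cxcl16 had 63, 117, 171 and 276 UMIs (1.29, 1.90, 3.18 and 3.58 CPM). The groups did not overlap and it rose 2.10-fold (log2 1.07, SE 0.207, adjusted p = 0.00690). It overlaps Zmynd15. Cxcl12 had 2410, 3213, 1642 and 2265 UMIs (49.3, 52.3, 30.5 and 29.4 CPM), with both knockouts below both controls, and fell by 0.76 on the log2 scale (SE 0.0678, adjusted p = 2.75e-04), which is 1.70-fold lower. Of the leptomeningeal list 7 of 10 genes were called lower, and the median log2 fold change over that list was -0.71. Its sums were 2306 and 2178 CPM in control and 2341 and 2398 CPM in knockout libraries. Most of each sum was Ptgds (2092 and 1973 CPM in the controls, 2232 and 2274 CPM in the knockouts). Ptgds did not pass the test (adjusted p = 0.271), so the sums hide the lower levels of the called genes. Of the oligodendrocyte list 7 of 7 genes were called lower, with sums of 7932 and 11572 against 4675 and 3241 CPM. The endothelial list, as given above, was higher. The part of these lists in the Cxcl12 result was not tested. In sums of equal numbers of spots per brain region, assigned by region genes, the log2 fold change of Cxcl12 was -0.71 (adjusted p = 2.23e-05). Ccr2 had 12, 10, 9 and 16 UMIs (0.246, 0.163, 0.167 and 0.208 CPM), with overlapping groups, a log2 fold change of -0.07 (SE 0.414) and an adjusted p of 0.918, and a change of moderate size was not detectable at this depth.

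The share of spots with at least 1 UMI of a gene gave the same order of groups. Ccl12 was found in 1.60% and 1.81% of kept control spots, in 9.72% (95% Wilson interval 8.90 to 10.6) of knockout 1 spots and in 14.2% (13.3 to 15.3) of knockout 2 spots. Cxcl10 was found in 0.307% and 0.317% of control spots, in 1.54% (1.23 to 1.94) of knockout 1 and in 9.03% (8.23 to 9.91) of knockout 2. Cxcl12 was found in 44.3% and 40.6% of control spots and in 25.2% and 31.8% of knockout spots. The intervals cover counting error only. Since knockout 1 was shallower, spots of at least 5000 UMIs were also thinned to that number, which left 2267 and 2557 control spots and 2952 and 3468 knockout spots. At equal depth the shares of Ccl12 in the knockouts were 5.59% (4.82 to 6.48) and 6.83% (6.04 to 7.72), with overlapping intervals, against 0.750% and 0.782% in the controls. Cxcl10 at equal depth was found in 1.05% (0.741 to 1.49) of knockout 1 spots and 4.64% (3.99 to 5.39) of knockout 2 spots, and Ccl2 in 0.644% (0.412 to 1.00) and 3.37% (2.82 to 4.03), so the knockouts differed at equal depth too. Cxcl12 was found in 21.3% and 21.5% of thinned control spots and 13.6% and 14.5% of thinned knockout spots.

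**Figure D2:**
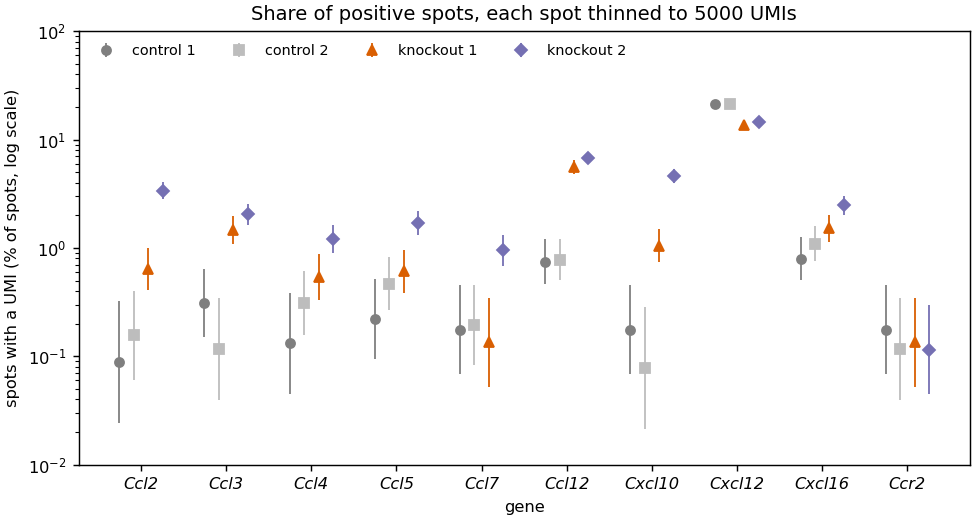
Percent of spots with at least 1 UMI of each gene (log scale) after thinning spots to 5000 UMIs, 1 point per library with its 95% Wilson interval. The knockouts lie together for Ccl12 (5.59% and 6.83%) and Cxcl12 (13.6% and 14.5%) and apart for Cxcl10 (1.05% and 4.64%) and Ccl2 (0.644% and 3.37%).

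How evenly the UMIs were spread separated the genes into more focal and wider patterns. No spot positions were used, so focal here means held by few spots, whether or not these touch. In knockout 2 Cxcl10 was focal: 14 of 4472 spots held 50% of its UMIs, 1 spot held 138 of them, and the 10 highest spots held 44.8%. In the same library 14 spots held 50% of the Ccl2 UMIs, with 114 in 1 spot, and 8 spots held 50% of the Ccl7 UMIs, with 30 in 1 spot. In knockout 1 50% of the Cxcl10 UMIs lay in 7 spots and 50% of the Ccl2 UMIs in 19 spots, and at the barcodes of the 10 highest Cxcl10 spots of knockout 2, which held 724 UMIs there, knockout 1 held 1 UMI. The same barcode need not lie on the same part of the brain, and only 71 of 4599 kept knockout 1 spots had Cxcl10. That 1 UMI therefore cannot show whether the high spots of both knockouts lay in different places. Ccl12 was wider, with 50% of its UMIs in 119 spots of knockout 1 and 165 of knockout 2 and no spot above 12 UMIs. Cxcl12 was wider still, with 50% of its UMIs in 340 and 377 spots. Such numbers also rise with a gene's UMIs, which in knockout 2 were 1617 for Cxcl10, 1017 for Ccl12, 2265 for Cxcl12 and 158 for Ccl7.

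Spread was also measured at equal depth. An even spread of the 391 thinned Cxcl10 UMIs of knockout 2 would reach more spots than the 161 that were positive, which were 43.5% of that number, and the variance of UMIs per spot was 8.20 times the mean. Ccl2 reached 55.9% of an even spread, with a variance of 4.57 times the mean. Ccl7, from 41 thinned UMIs, reached 81.0% with 1.87 times the mean. At this depth Ccl7, with the fewest spots holding 50% of its UMIs, was the nearest of the 3 to an even spread. Over all 14438 genes with at least 20 thinned UMIs in knockout 2 the median was 98.1% of an even spread, the 5th percentile 92.1% and the 95th percentile of variance over mean 1.27. Ccl12 (88.7%, variance 1.27 times the mean) and Cxcl12 (91.5%, 1.28 times) thus also lay below the 5th percentile, but nearer to an even spread than Cxcl10. In knockout 1 Cxcl10 reached 62.5% of an even spread and Ccl2 79.5%, from 50 and 24 thinned UMIs, against a median of 98.0% over all genes. The order of Ccl7, Ccl2 and Cxcl10 in knockout 2 depended on depth. With all UMIs of kept spots Ccl7 was again the nearest to even, at 48.3% against 34.3% for Ccl2 and 29.8% for Cxcl10. With spots thinned to 1000 UMIs Ccl7 was the farthest, at 73.5% from 15 UMIs, against 88.0% for Ccl2 and 80.2% for Cxcl10. Leaving out each gene's own top 1% of spots, a description with the outcome itself removed, left Cxcl10 at 6.57 CPM and Ccl2 at 3.60 CPM in knockout 2 and at 0.472 and 0.227 CPM in knockout 1, while Ccl12 stayed at 10.4 and 8.78 CPM.

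**Figure D3:**
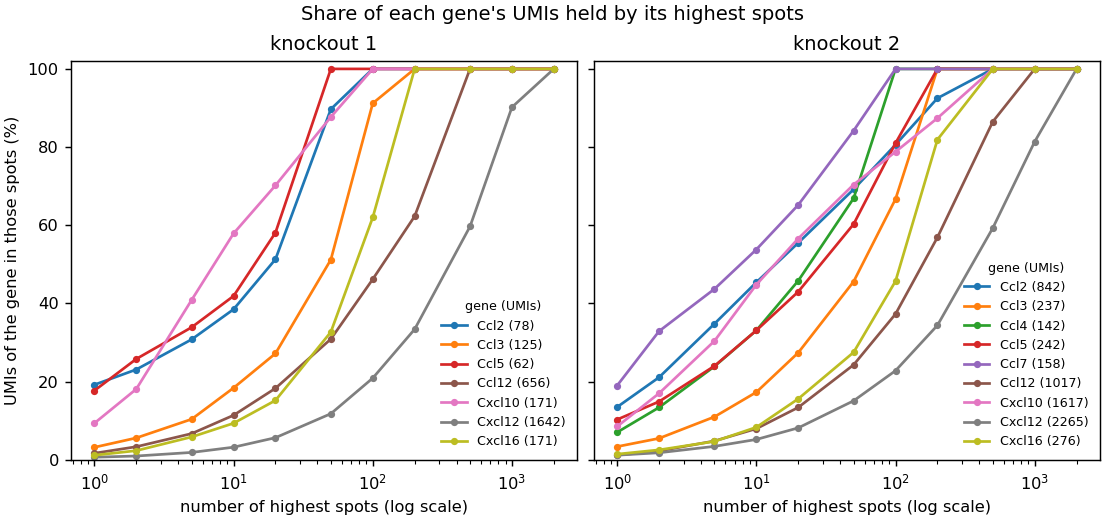
Cumulative percent of a gene's UMIs held by its highest spots (log scale) in each knockout, for genes with at least 50 UMIs, whose number stands in the legend. In knockout 2 the curves of Cxcl10, Ccl2 and Ccl7 start high, with 44.8%, 45.4% and 53.8% in 10 spots, while that of Ccl12 reaches 7.96% there and that of Cxcl12 5.21%.

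To ask which tissue the UMIs came from, each library's spots were ranked by the share of UMIs from a marker list, and the top 10% were compared with the rest. Cxcl10 lay in spots rich in interferon-response genes, which have no member of the 10 in their list: 71.9% of its UMIs in knockout 1 and 73.9% in knockout 2 were in these spots, which held 4.63% and 5.59% of all UMIs. Its level there was 49.9 CPM against 0.946 CPM in the other spots of knockout 1, and 288 CPM against 6.03 CPM in knockout 2. Of Ccl2, 33.3% and 72.9% lay in interferon-rich spots, and of Ccl7 in knockout 2 77.2%. Ccl5 split by library, with 4.84% in knockout 1 and 48.8% in knockout 2. In knockout 2 spots rich in reactive astrocyte genes also held more than their share of Ccl7 (41.8%), Cxcl10 (32.8%) and Ccl2 (28.6%) with 5.15% of all UMIs, but in knockout 1 they held 5.85% of Cxcl10 and 7.69% of Ccl2 with 5.43% of all UMIs. Neuron-rich spots, taken as tissue poor in these transcripts, held Cxcl10 at 1.89 CPM in knockout 1 and 7.0 CPM in knockout 2.

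Ccl3 and Ccl4 were also raised in phagocyte-rich spots, which held 36.8% and 29.1% of Ccl3 and 35.9% and 22.5% of Ccl4 in knockouts 1 and 2, with 5.32% and 5.49% of all UMIs. Interferon-rich spots held less of both genes in knockout 1 (14.4% of Ccl3 and 10.3% of Ccl4), but in knockout 2 they held about as much of Ccl3 (71 of 237 UMIs, against 69 in phagocyte-rich spots) and more of Ccl4 (46.5%). Ccl12 was raised in phagocyte-rich spots of both knockouts (34.3 against 11.1 CPM and 37.9 against 12.3 CPM) but had most of its UMIs elsewhere. Cxcl12 was higher in endothelium-rich spots of every library, at 93.4 and 113 CPM against 46.4 and 47.7 CPM in other control spots, and at 68.6 and 106 CPM against 29.0 and 26.0 CPM in the knockouts. Between the groups its level in the other spots was lower in both knockouts, whereas in endothelium-rich spots knockout 2 lay within the range of the controls.

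**Figure D4:**
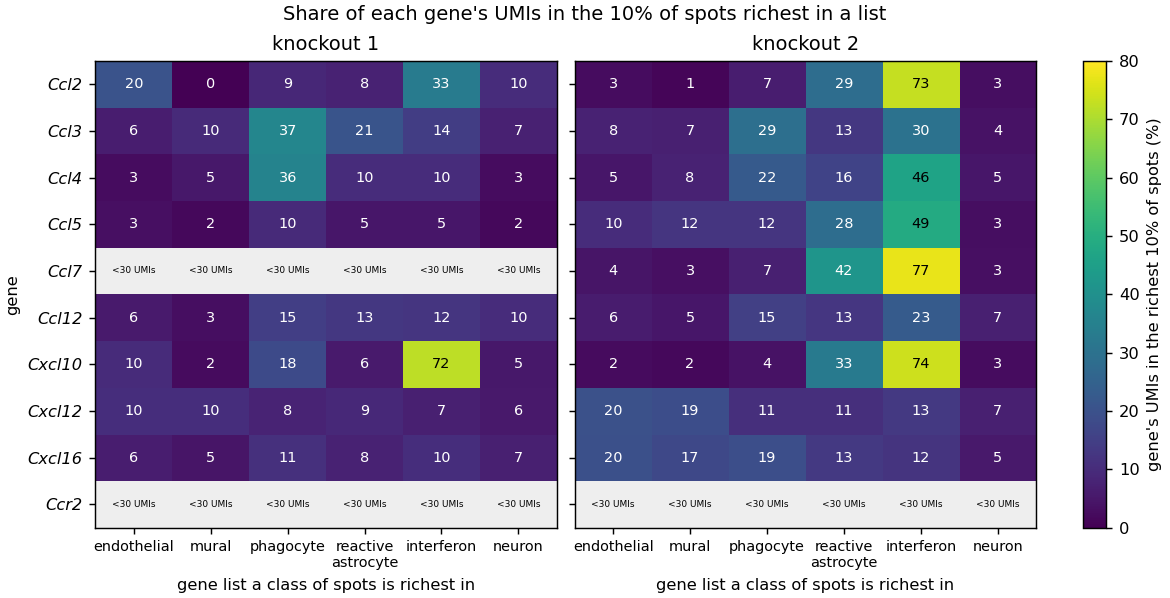
Percent of each gene's UMIs in the 10% of spots richest in a marker list, in each knockout, with genes under 30 UMIs left grey. Interferon-rich spots hold 72% and 74% of Cxcl10, phagocyte-rich spots 37% and 29% of Ccl3, and the endothelium-rich and mural-rich spots of knockout 2 20% and 19% of Cxcl12.

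Rich and other spots were then tested across libraries, with the library as a block and p-values adjusted over all genes. In knockout phagocyte-rich spots 6 of the 10 genes were called higher than in other spots, where 14.0% of 16823 genes were: Ccl3 8.74-fold (log2 3.13, SE 0.273, adjusted p = 5.68e-07), Ccl4 6.62-fold, Cxcl16 3.36-fold, Ccl12 3.22-fold, Ccl5 2.39-fold and Cxcl12 1.90-fold. Without knockout 2 the calls of Cxcl16 (adjusted p = 0.0809) and Ccl5 (adjusted p = 0.585) did not pass. Cxcl10 (log2 0.31, adjusted p = 0.620) and Ccl2 (0.43, adjusted p = 0.313) did not pass, and they were 3.94 and 1.76 times the other spots in knockout 1 and 0.675 and 1.20 times in knockout 2. In control phagocyte-rich spots 5 genes passed, beside 15.0% of all genes, namely Ccr2, Ccl7, Cxcl16, Ccl12 and Cxcl12, of which Ccr2 (adjusted p = 0.215) and Ccl7 (adjusted p = 0.455) did not pass without control 1. In the main fit the excess in phagocyte-rich spots differed between the groups for Ccl3 alone, by 2.71 on the log2 scale (SE 0.785, adjusted p = 0.0427), beside 4.02% of all genes called in that direction and 4.58% in the other. The Ccl3 difference rested on 18 and 20 control UMIs. Under the alternative settings the difference of Cxcl10 ranged from -3.51 to 2.23 on the log2 scale and passed in some of them.

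In vessel-rich spots, the tissue in which the Cre acts, Cxcl12 (3.24-fold, log2 1.70, SE 0.143, adjusted p = 7.06e-07), Cxcl16 (2.77-fold, adjusted p = 0.00727) and Ccr2 (9.74-fold, adjusted p = 0.0210) were called higher in the knockouts, beside 11.8% of 17348 genes. The Ccr2 call rested on 3 of 9 and 6 of 16 UMIs and did not pass when either knockout was left out, and that of Cxcl16 did not pass without knockout 2 (log2 0.48, adjusted p = 0.686). In control vessel-rich spots Ccl12, Cxcl12 and Cxcl16 passed, beside 8.18% of genes called higher and 5.33% lower. Ccl12 did not pass without control 1 (adjusted p = 0.0606) or without control 2 (adjusted p = 0.187), nor did Cxcl16 without control 2 (adjusted p = 0.167). No difference between knockout and control passed for any of the 10, where 0.184% of genes were called higher and 0.115% lower. At an unadjusted p under 0.05 in edgeR 2 would count, Ccl12 (log2 difference -1.45) and Cxcl12 (0.54). Cxcl10 and Ccl2 were lower in vessel-rich than in other spots of knockout 2, at 9.17 against 22.6 CPM and 5.17 against 11.7 CPM, and higher in those of knockout 1, at 6.74 against 3.04 CPM and 6.34 against 1.22 CPM. The knockout 1 levels rest on few UMIs. There 1 spot held 16 of the 171 Cxcl10 UMIs and 1 spot 15 of the 78 Ccl2 UMIs, so 1 spot could make such an excess. Whether these spots were vessel-rich was not tested.

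The focal genes shared spots in knockout 2. At equal depth 60.6% of the 33 Ccl7-positive spots (95% Wilson interval 43.7 to 75.3) also had Cxcl10, against 4.10% of the other spots, and 54.5% (38.0 to 70.2) had Ccl2, against 2.88%. Of the 117 Ccl2-positive spots 40.2% (31.7 to 49.2) had Cxcl10, against 3.40% of the others. Ccl12 was found in 25.6% of Ccl2-positive spots and in 6.18% of the others. Cxcl12 did not follow, with 16.1% of Cxcl10-positive spots (11.3 to 22.6) and 14.5% of the others. In knockout 1 the counts were small, with 4 of 19 Ccl2-positive spots holding Cxcl10, against 0.921% of the others. 

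Genes whose RNA was most raised in spots positive for a member were ranked for Ccl12 and Cxcl12, the members with at least 100 positive thinned spots in both knockouts, by the lower of the ratios in both knockouts over 12002 genes. For Ccl12 these were Lox, a collagen cross-linking enzyme (3.30 and 3.36 times the other spots), Usp18, an interferon-induced protease (3.22 and 3.29 times), and Ifih1, a sensor of double-stranded RNA (3.23 and 2.75 times). For Cxcl12 they were the collagen gene Col1a1 (2.39 and 2.66 times), Aebp1 (2.05 and 3.28 times) and Tmem140 (2.04 and 2.24 times). The median ratio over all genes lay between 0.983 and 0.995. The levels behind these ratios were low. In knockouts 1 and 2 Lox was at 10.9 and 15.2 CPM over 165 and 237 Ccl12-positive spots, and Usp18 at 9.70 and 16.9 CPM. Tmem140 was at 8.48 and 9.52 CPM over 401 and 504 Cxcl12-positive spots. The named ratios are thus the highest of many and rest on few UMIs. How far counting noise raised them was not tested.

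Among 49 other chemokines and receptors listed, 26 were tested, of which 14 were called higher and 3 lower. Over all genes tested these shares were 20.1% and 18.3%. The receptor Ccr1, which binds Ccl3 and Ccl5, had 8, 10, 129 and 201 UMIs and rose 15.1-fold (log2 3.92, SE 0.243, adjusted p = 5.82e-05). Ccl17, a ligand of Ccr4, rose 5.03-fold to near the same level in both knockouts (5.01, 3.50, 21.7 and 20.8 CPM). Ppbp, a platelet chemokine, rose 6.63-fold, Cxcr2, a neutrophil receptor, 5.90-fold, Ccl6, a myeloid chemokine of rodents, 1.89-fold and Ackr1, a scavenging receptor of venules, 1.75-fold. The 3 that fell were Cx3cl1, the neuronal ligand of microglia, which was 1.64-fold lower (417, 419, 256 and 253 CPM), Ccl22, 3.97-fold lower, and Cxcl14, 1.22-fold lower.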

How the data were processed

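Values are raw UMI counts for each gene and barcode, as the authors deposited them, with no normalization. The submitters' processing notes name mm10 and Space Ranger, and Cell Ranger 4 stands in the matrix headers. The Space Ranger version, the annotation and the use of strand are not stated in the sources used. Neither a tissue call nor positions were used, and spots with at least 1000 UMIs held 98.6% to 99.5% of UMIs.

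Groups followed the genotype labels. Whole-section sums over these spots were tested with edgeR 4.0.16 in R 4.3.3 (TMM, filterByExpr, quasi-likelihood test, Benjamini-Hochberg over all genes tested, threshold 0.05). CPM over whole sections, and without the top 1% of spots, uses TMM-scaled totals. CPM in classes of spots uses the UMIs of those spots without the TMM factors, which lay between 0.962 and 1.04. Each SE is the log2 fold change divided by the root of its F statistic. Classes were the 10% of spots in a library with the highest share of UMIs from a list, fitted with a rich and a rest sum per library, the library as a block, and without that list's genes. In simulated whole-section data of 17546 genes, 46 of 50 genes raised 2-fold and 50 of 50 raised 4-fold were recovered, and 22 unchanged genes were called. The changed genes were drawn only above a minimum mean level, which Ccl4, Ccl7 and Ccr2 did not reach. These rates therefore do not cover those genes. Alternatives included DESeq2 1.42.0.

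The 10 genes, the marker lists and the tests were chosen with earlier results of these data known. The other genes named were up to 6 in each direction with the smallest p from the lists of other chemokines and receptors, and 3 companions of each member with at least 100 positive thinned spots in both knockouts, among genes with at least 50 UMIs. Positions and promoters came from RefSeq on GRCm38.p6.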

Additional observations from a re-analysis of the deposited data

Results flagged for a closer look

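The excess of Ccl3 in phagocyte-rich over other spots differed between the groups, by 2.71 on the log2 scale (SE 0.785, adjusted p = 0.0427, edgeR's quasi-likelihood test of the interaction, 2 libraries per group). In both knockouts the level was higher in phagocyte-rich spots, 10.4 times the other spots in knockout 1 and 7.07 times in knockout 2, and the fitted excess of the controls was 0.42 on the log2 scale (SE 0.928). The difference did not pass in the top 5% of spots (1.93, adjusted p = 0.224), with spots thinned to 1000 UMIs (4.80, adjusted p = 0.910), without control 2 (1.99, adjusted p = 0.285) or without knockout 1 (2.48, adjusted p = 0.0792).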

How the results depend on the processing

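No called change of the 10 genes reversed under any alternative run, whether over whole sections or in classes of spots. Over whole sections 7 genes were called higher and 1 lower, and leaving out 1 library gave 5 to 8 higher, a lone library being assumed to vary like the others. With spots thinned to 1000 UMIs 2 were called higher: of the 5 lost calls, those of Cxcl10, Ccl2, Ccl4 and Ccl5 fell below the count filter and Cxcl16 did not pass (log2 0.67, adjusted p = 0.274). The fold of Ccl3 was then 21.2. Its size is uncertain, since thinning left Ccl3 with 1 UMI in control 1 and 0 in control 2. Knockout 1 kept 20 and knockout 2 kept 15. With this thinning the number of all genes called went from 3532 to 1714 higher and from 3207 to 1664 lower. With the replicate number as a block Ccl7 passed too (log2 2.15, adjusted p = 0.0132) and 3101 genes were called higher and 2712 lower. Same-numbered libraries deviated oppositely (r = -0.118 over 17546 genes), and a crossed pairing, added after seeing the data, called 4208 and 3968. In vessel-rich spots thinning to 1000 UMIs left 0 of 3 calls in the controls and 1 of 3 in the knockouts, no count filter gave 5 in the controls and 1 difference between groups, and the top 20% of spots gave 1 lower call in the knockouts. Without 1 library in turn these counts ranged from 2 to 5, from 1 to 3, from 0 to 1 for differences in each direction, and from 0 to 2 for lower calls in the knockouts. In phagocyte-rich spots thinning left 1 of 5 calls in the controls, 2 of 6 in the knockouts and 0 of 1 difference. There the top 5% of spots gave 0 higher and 1 lower difference and no count filter gave 1 lower difference, and without 1 library in turn the counts ranged from 3 to 6 in the controls, 0 to 1 for higher differences and 0 to 2 for lower ones. The causes were not tested. Changes that were not called changed sign in 3 fits over whole sections, 24 in vessel-rich and 17 in phagocyte-rich spots. Counts under 30 UMIs in a library limit what can be seen for Ccl7 and Ccr2. The same limit held in both controls for Ccl2, Ccl3, Ccl4 and Cxcl10, and in control 1 for Ccl5, so the folds of these genes rest on small control counts.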

Other observations

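Cxcl1 and Cxcl2, neutrophil chemokines singled out after their values were seen, had the same unevenness between the knockouts as Cxcl10 and Ccl2. Cxcl1 had 7 and 6 UMIs in the controls, 41 in knockout 1 and 320 in knockout 2. Cxcl2 had 0 UMIs in both controls, which allows up to 0.0614 and 0.0488 CPM, and 36 and 225 in the knockouts. The interferon-induced gene Rsad2, also chosen after its values were seen, was at 0.655 and 0.521 CPM in the controls, 2.89 CPM in knockout 1 and 9.26 CPM in knockout 2, whereas Ifitm3 of the same list was at 83.9 and 80.7 CPM in the knockouts, against 26.7 and 26.4 CPM.

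Some receptors of these ligands, chosen as known partners with their values in view, did not move as one group. Cxcr4, a receptor of Cxcl12, had 65, 88, 141 and 320 UMIs in the order control 1, control 2, knockout 1 and knockout 2 (log2 1.30, SE 0.245), while Ackr3, the other one, was at 15.3 and 14.7 CPM against 15.8 and 17.4 CPM. Cxcr3, the receptor of Cxcl10, had 6, 6, 5 and 11 UMIs, and Cxcr6, the receptor of Cxcl16, had 3, 3, 4 and 9, both below the count filter.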
